A study of Mus musculus with 4 samples.

Results

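Acetylcholine is made, packed, released and broken down by a small set of genes. Here 10 genes were followed across the cell types of adipose tissue that carry a ChAT reporter. They cover its synthesis, packing and breakdown, choline uptake and use, and an adenosine receptor. They were taken by symbol from the 31053 genes of the deposited matrices and are Chat, Slc18a3, Slc5a7, Slc44a1, Slc44a2, Chka, Chdh, Ache, Bche and Adora2a. The data are single-cell RNA sequencing of ChAT-eGFP+ cells sorted by FACS from the stromal vascular fraction (SVF) of inguinal white adipose tissue (IWAT), in 4 libraries. All libraries came from male mice with the ChATBAC-eGFP transgene that were 5 weeks old at the start and spent 3 weeks at thermoneutrality (30 °C). A pair of libraries was made after 4 h at 4 °C and the other pair after 4 h more at 30 °C, each from 4 pooled mice. The mice of the cold group also had 24 h at room temperature before the cold, a step that cannot be told apart from the cold itself. The reporter is a bacterial artificial chromosome of the Chat locus, so every level given here is a level among cells that passed a sort on that reporter, and none describes the whole SVF. Whether this transgene also carries Slc18a3, which lies inside Chat, is not given in the sources used here, and its transcripts and those of the native gene cannot be told apart.

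In cholinergic neurons, choline acetyltransferase joins choline to acetyl-CoA, the vesicular transporter loads acetylcholine into vesicles, and acetylcholinesterase breaks it down outside the cell, after which a high-affinity transporter takes the choline back up. Immune cells can also express choline acetyltransferase, and choline is needed in every cell for phosphatidylcholine, the main phospholipid of membranes. The adenosine receptor Adora2a, the last of the 10, signals through cAMP and is known to dampen the activation of T cells and myeloid cells.

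Of 26654 cells in the matrices, 21253 passed the filters of the study, 5191 and 5388 of them kept at 30 °C and 5329 and 5345 at 4 °C. Their median depth lay between 7520 and 8068 UMIs, where a UMI is a counted molecule. Cell types were gated on marker UMIs, none of them from the 10 genes, and 16692 cells (78.5%) fell into 14 types. These were Foxp3 T cells (3329 cells), Cxcr5 T cells (808), other CD4 T cells (1511), Eomes T cells (203), γδ T cells (632), innate lymphoid cells (342), Ighd-positive B cells (6117), Ighd-negative B cells (1070), germinal centre B cells (865), plasma cells (359), macrophages (955), mature dendritic cells (292), stromal cells (118) and lymphatic endothelial cells (91). CPM are UMIs of a gene per 1000000 UMIs. Genes used in the gates are high by construction, such as Foxp3 at 358 CPM in Foxp3 T cells against 1.42 in other types. The same holds for C1qa at 4531 in macrophages against 2.16. Of genes outside the gates, Ctla4 was at 996 CPM in Foxp3 T cells against 69.9. Pdcd1 was at 211 in Cxcr5 T cells against 18.8, and Il17a at 337 in γδ T cells against 0.633. Scrublet marked 542 of the cells (2.55%) as doublets, which were kept here and removed as an alternative, and 5 to 14 barcodes were shared by any pair of libraries.

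Chat and Slc18a3 form a nested locus, and their upstream sequences are shown because both genes of the pair hold the same motif. On GRCm38, Chat is a minus-strand gene of chromosome 14, between positions 32408203 and 32465989. Slc18a3 is a single exon of 2413 bases at 32462438 to 32464850, also minus strand, and lies inside the span of 4 of the 8 annotated Chat transcripts, in their first intron, without overlap with any Chat exon. The annotated starts are 1139 bases apart. A read in the Slc18a3 exon could therefore come from Slc18a3 or from unspliced Chat RNA, and these counts cannot tell them apart. The sequences below are from RefSeq GRCm38.p6, outside annotated exons, read 5′ to 3′ on the minus strand, with the core of the cAMP response element (TGACG, here as its reverse complement) in capitals. The first spans chr14:32465990-32466159 and the second chr14:32464851-32465041.
Chat upstream: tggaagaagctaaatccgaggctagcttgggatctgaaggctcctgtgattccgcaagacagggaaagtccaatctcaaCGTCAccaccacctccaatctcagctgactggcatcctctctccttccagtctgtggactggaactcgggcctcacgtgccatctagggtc
Slc18a3 upstream: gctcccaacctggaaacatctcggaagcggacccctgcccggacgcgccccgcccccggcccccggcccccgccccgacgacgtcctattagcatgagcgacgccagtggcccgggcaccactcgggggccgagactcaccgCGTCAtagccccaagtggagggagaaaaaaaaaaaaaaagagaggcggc
As printed, the motif begins 171 bases before the RefSeq start in Chat and 49 bases before it in Slc18a3. Searched on both strands from 250 bases before to 50 after each start, TGACG was in 3 of the 9 members with a promoter entry (Chat, Slc18a3 and Chka) and in 20.8% of all 32851 promoters. The GC box GGGCGG was in 7 of the 9, against 35.7% of all promoters, but not in Chat. The E-box CACGTG was in 2 of the 9, Chat and Ache, against 7.15%, and TATAAA in 1, Slc5a7, against 13.6%. A member was counted if any of its promoter entries matched, and some have more than 1, while the shares of all promoters are per entry. These are matches of letters and were not tested as sites.

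The members differed widely in how much was counted. Over all cells kept, 16421 UMIs of Chat were counted, in 38.6% of cells, and 8752 of Slc44a2, 4370 of Chka, 3646 of Adora2a and 2774 of Slc44a1. Far fewer were counted of Chdh (645), Slc18a3 (306), Ache (32) and Bche (8), and none of Slc5a7. With 216621798 UMIs in all, the 7 members from Chat to Slc18a3 could be compared between cell types and the other 3 could not. Levels below are CPM within a cell type and library, and 3′ UMI counts are not scaled by gene length. They are used to compare a gene between cell types and not genes with each other. In such sums, fewer expressing cells and less RNA per cell cannot be told apart.

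By CPM, Chat, the enzyme of acetylcholine synthesis, was highest in Cxcr5 T cells, Foxp3 T cells, germinal centre B cells and mature dendritic cells. It was lowest in macrophages, lymphatic endothelial cells and stromal cells. In the order 30 °C replicates 1 and 2, then 4 °C replicates 1 and 2, which is kept throughout, Cxcr5 T cells, which carry the chemokine receptor of B cell follicles, had 129.8, 127.8, 170.6 and 154.1 CPM of Chat. Foxp3 T cells, the regulatory lineage, had 100.0, 120.1, 109.0 and 145.4 CPM. The mean over 4 libraries was 145.6 CPM ± 20.5 (SD, n = 4) in the first and 118.6 ± 19.6 in the second, the ranges overlapped, and the difference of 0.21 on the log2 scale did not pass edgeR's test (adjusted p = 0.462).

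Germinal centre B cells, which divide and mutate their immunoglobulin genes, had 106.5, 112.7, 113.3 and 135.2 CPM of Chat. Mature dendritic cells, which carry antigen to T cells, were the least variable of the high types, with 106.9, 104.3, 108.3 and 115.7. Below them came other CD4 T cells with a mean of 91.9 CPM, Eomes T cells with 85.4, Ighd-negative B cells with 80.7 and innate lymphoid cells with 78.1. The innate lymphoid cells spread most among these, from 49.8 to 115.6 CPM. Ighd-positive B cells, the bulk of the B cells, had a mean of 52.3, plasma cells 51.9 and γδ T cells 47.4. Then came a gap to lymphatic endothelial cells with 14.5 and macrophages with 13.7.

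No Chat UMI was counted in the stromal cells of any library. A count of 0 allows up to 20.2, 12.9, 7.44 and 13.9 CPM in the 4 libraries, below every library of the 11 types from Cxcr5 T cells to γδ T cells. At an equal depth of 3000 UMIs a cell, where shallower cells were left out, 0 of 80 stromal cells had a Chat UMI, which allows a share of up to 3.75%. The T cell and B cell marker panels were present in those cells at up to 1.59% and 0.841% of their levels in Foxp3 T cells and in Ighd-positive B cells. Cells that also passed either panel were left out, which caps these levels. These intervals and limits cover counting error only.

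**Figure D1:**
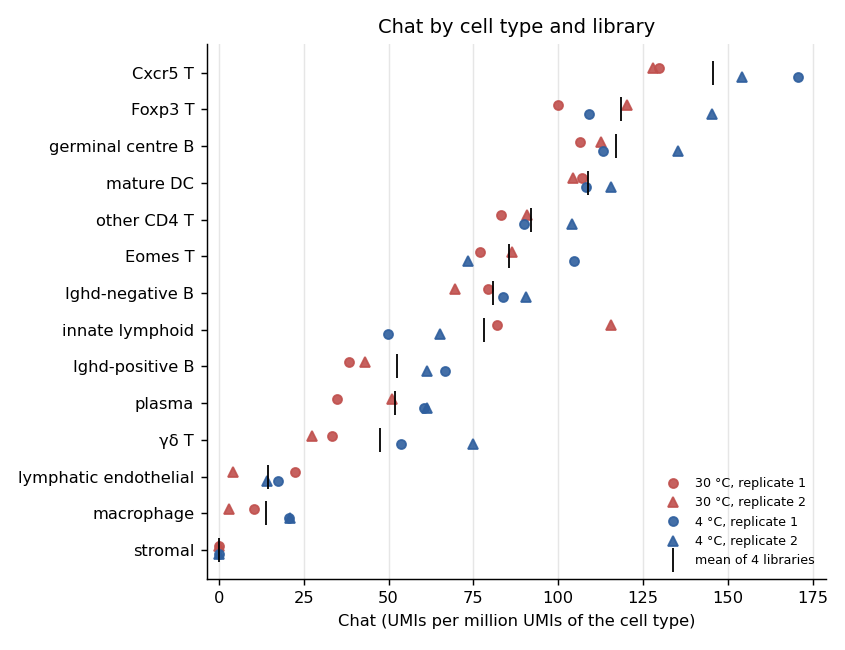
Chat in 14 cell types, in CPM of the cell type (horizontal axis), with a point for each library (red 30 °C, blue 4 °C, circle replicate 1, triangle replicate 2) and a tick for the mean of 4 libraries. Cxcr5 T cells lie between 127.8 and 170.6, macrophages between 2.92 and 21.1, and all stromal points at 0.

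In 1 edgeR fit over all types and libraries, with the library as a factor and TMM scaling, Chat differed between 66 of the 91 pairs of cell types, where 45.6% of all genes and pairs together were called (2.75% to 70.2% of genes in a single pair). Between neighbours in the order of levels, 6 of the first 8 steps were called neither with TMM nor without it. These were the steps from Cxcr5 T cells to mature dendritic cells and from other CD4 T cells to innate lymphoid cells, with differences of 0.03 to 0.31 in size. The step from mature dendritic cells to other CD4 T cells, 0.47, was called with TMM (adjusted p = 0.0358, edgeR) and not without it (0.24, adjusted p = 0.308). That from innate lymphoid cells to Ighd-positive B cells was not called with TMM (0.35, adjusted p = 0.186, edgeR) and was without it (0.61, adjusted p = 0.0164). The step from γδ T cells down to lymphatic endothelial cells, 1.80 on the log2 scale, was called on both scalings (adjusted p = 6.4e-04 by edgeR with TMM).

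Against Ighd-positive B cells, Chat was higher by 1.09 (log2, SE 0.18) in Cxcr5 T cells, by 0.99 (SE 0.17) in germinal centre B cells, by 0.97 (SE 0.19) in mature dendritic cells and by 0.88 (SE 0.17) in Foxp3 T cells. Chat was lower by a log2 difference of -2.27 (SE 0.23) in macrophages and -2.39 (SE 0.41) in lymphatic endothelial cells, and all of these calls held without TMM. The place of plasma cells depends on the scaling. Immunoglobulin genes took 64.5% to 67.3% of their UMIs, and TMM raised their values 2.96-fold. Chat was thus 1.36 above Ighd-positive B cells with TMM and at -0.012 (adjusted p = 0.974, edgeR) without it. With TMM and immunoglobulin genes left out it was also 1.36 above them. With TMM, Chat in Foxp3 T cells was below that in plasma cells (-0.48, adjusted p = 0.022, edgeR). Cxcr5 T cells were not called different from plasma cells (-0.27, adjusted p = 0.245, edgeR).

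At 3000 UMIs a cell, a Chat UMI was found in 32.4% of Cxcr5 T cells, 29.2% of Foxp3 T cells, 28.8% of germinal centre B cells and 26.5% of mature dendritic cells. The share was 13.4% in Ighd-positive B cells, 12.8% in γδ T cells and 3.82% in macrophages (33 of 865, exact 95% interval 2.64% to 5.32%). The deep types looked different without thinning, as 69.6% of germinal centre B cells and 66.3% of plasma cells had a Chat UMI among all their UMIs, at median depths of 13767 and 31247 UMIs. In plasma cells the share at equal depth was 13.1%. Immunoglobulin genes took most of the UMIs there, so the depth left for other genes was not equal to that of other types. Most cells of every type lacked a Chat UMI at equal depth although all were sorted on the reporter.

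Slc18a3, the vesicular acetylcholine transporter that loads acetylcholine into vesicles, split the lymphocytes in a way that Chat did not. Innate lymphoid cells had the highest levels of Slc18a3, with 12.2, 3.50, 6.70 and 10.6 CPM from 7, 3, 7 and 6 UMIs. In γδ T cells it was at 0.356, 2.65, 5.87 and 7.49 CPM from 1, 8, 7 and 4 UMIs, and in other CD4 T cells at 2.63, 4.19, 2.67 and 4.68 CPM. Every library of these 3 types had Slc18a3 UMIs, and so did every library of Foxp3, Cxcr5 and Eomes T cells.

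In the B lineage almost none was counted. Ighd-positive B cells had 4 Slc18a3 UMIs beside 2879 of Chat, Ighd-negative B cells 1 beside 936, germinal centre B cells 1 beside 1584 and plasma cells 2 beside 599. Mature dendritic cells had 0 beside 425 of Chat and macrophages 0 beside 134. As a share of the UMIs of both genes, their exact 95% intervals reach 0.864% and 2.72%. The macrophage limit lies above the share in Foxp3 T cells, so this count cannot set macrophages apart from T cells. Summed over T cell and innate lymphoid types, Slc18a3 made up 2.76% of the UMIs of both genes (177 beside 6228, exact 95% interval 2.38% to 3.19%), and over B and plasma types 0.133% (8 beside 5998, 0.0575% to 0.262%). Within the first group the share ran from 1.81% in Foxp3 T cells to 8.91% in innate lymphoid cells.

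**Figure D2:**
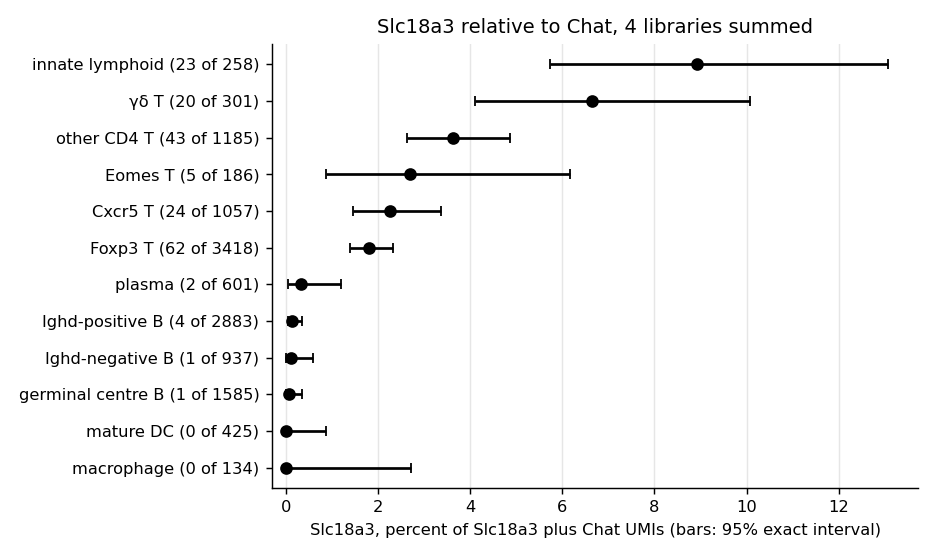
Slc18a3 UMIs as a percent of the UMIs of Slc18a3 and Chat together (horizontal axis) in 12 cell types, 4 libraries summed, with exact 95% intervals as bars and the counts beside each name. Innate lymphoid cells sit at 8.91% and γδ T cells at 6.64%, while the 4 B and plasma types are all under 0.4%.

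Against Ighd-positive B cells, Slc18a3 was called higher in all 6 T cell and innate lymphoid types, by 5.89 (log2, SE 0.69) in innate lymphoid cells, 4.65 (SE 0.61) in other CD4 T cells and 4.02 (SE 0.59) in Foxp3 T cells, with the same 6 calls without TMM. The base of 4 UMIs makes the sizes imprecise. It was called in none of the B lineage or myeloid types. The ranges of neighbours overlapped, and the step from innate lymphoid cells to γδ T cells, 1.35, did not pass edgeR's test (adjusted p = 0.154). At 3000 UMIs a cell, 2.63% of innate lymphoid cells had a Slc18a3 UMI.

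Slc5a7, the high-affinity choline transporter of cholinergic nerve endings, had no UMI in any of the 21253 cells. The choline transporter-like genes Slc44a1 and Slc44a2 were counted in every type instead, with opposite cell types on top. Slc44a1, which moves choline across the plasma membrane and mitochondria, was highest in stromal cells with 195.1, 155.3, 131.5 and 115.9 CPM. Mature dendritic cells had 38.1, 56.3, 84.5 and 90.6 and macrophages 36.7, 37.3, 41.9 and 59.1 CPM. Lymphatic endothelial cells followed with 25.9 to 44.7 CPM, a step from macrophages that was not called (0.45, adjusted p = 0.198, edgeR). Plasma cells had 20.2 to 30.4 CPM, and their place depends on the scaling, as the log2 difference of lymphatic endothelial cells from plasma cells was -1.46 with TMM and 0.63 without it, both called. The T, innate lymphoid and other B cell types had means of 5.50 to 9.03 CPM without order among neighbours (all 8 steps below innate lymphoid cells not called). The steps from stromal cells to mature dendritic cells (0.64, adjusted p = 0.00757) and from there to macrophages (1.00, adjusted p = 3.7e-06) were called by edgeR.

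Slc44a2, which is also a surface protein of neutrophils and endothelium, was highest in lymphatic endothelial cells with 154.2, 160.3, 77.7 and 75.6 CPM, from 11 to 40 cells a library. Cxcr5 T cells came next with 50.6 to 61.2 CPM, and Ighd-positive B cells had 44.8, 42.7, 55.2 and 60.1. Plasma cells were lowest with 1.81 to 3.70 CPM, below mature dendritic cells with 9.22 to 19.7 and macrophages with 9.33 to 21.8. The step from macrophages to plasma cells was called without TMM (2.34) and not with it (0.55, adjusted p = 0.146, edgeR). Against Ighd-positive B cells, Slc44a2 was 0.62 higher (log2, SE 0.20) in lymphatic endothelial cells and lower in plasma cells (-2.84), macrophages (-2.29), mature dendritic cells (-1.91) and germinal centre B cells (-1.17), all called by edgeR with and without TMM. The call in lymphatic endothelial cells was lost without replicate 1 at 30 °C (0.32, adjusted p = 0.326, edgeR) and without replicate 2 at 30 °C (0.37, adjusted p = 0.22), and was 0.96 without replicate 2 at 4 °C. In plasma cells the pair thus went apart, as Slc44a1 was 2.88 above Ighd-positive B cells with TMM and 1.51 without it, both called.

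**Figure D3:**
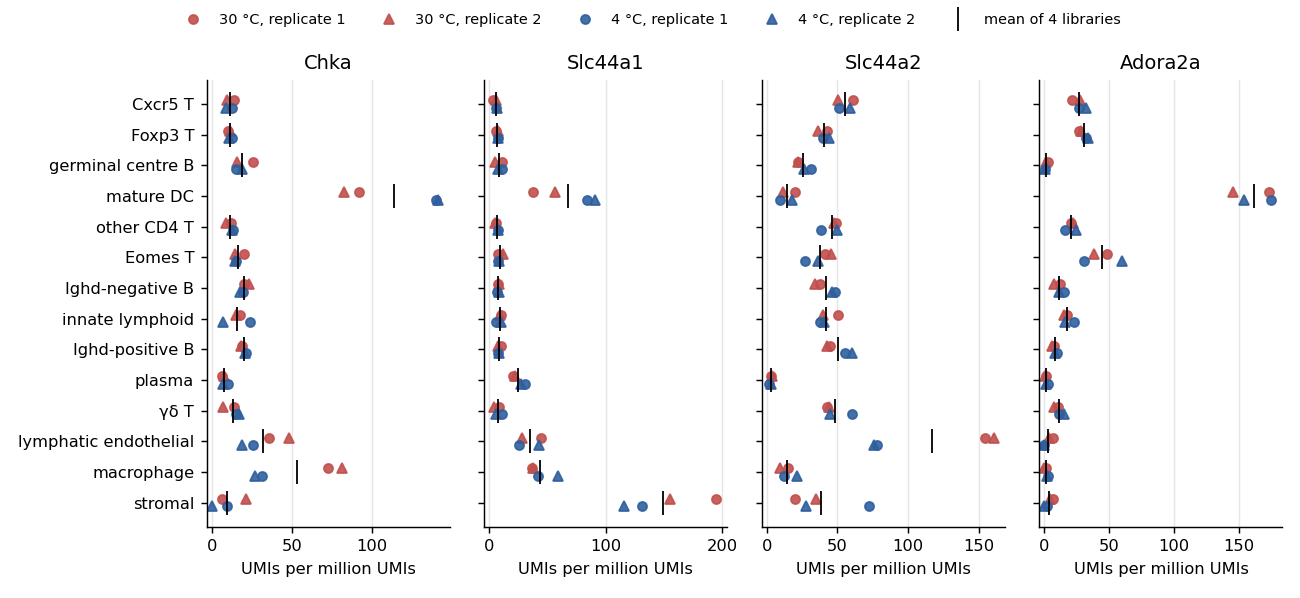
Chka, Slc44a1, Slc44a2 and Adora2a in 14 cell types ordered by Chat, in CPM (horizontal axes), with a point for each library (red 30 °C, blue 4 °C) and a tick for the mean of 4 libraries. Mature dendritic cells lead for Chka and Adora2a, stromal cells for Slc44a1 and lymphatic endothelial cells for Slc44a2.

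Chka, the kinase that commits choline to phosphatidylcholine and so draws on the same substrate as Chat, was highest in mature dendritic cells with 92.1, 82.8, 139.8 and 141.6 CPM. Macrophages had 72.8 and 81.6 CPM at 30 °C and 31.5 and 27.2 at 4 °C, while B cell types had 15.5 to 25.7 and Foxp3, Cxcr5 and other CD4 T cells 8.84 to 13.9. Against Ighd-positive B cells, Chka was higher by 2.46 (log2, SE 0.21) in mature dendritic cells and 0.94 (SE 0.20) in macrophages. It was lower in Foxp3, Cxcr5, other CD4 and γδ T cells, by -1.04 to -1.25, and these calls held without TMM. In plasma cells Chka was at 0.03 with TMM and -1.34 without it, so its direction there depends on the scaling.

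Chdh, the mitochondrial dehydrogenase that turns choline to betaine, was highest in innate lymphoid cells with 20.9, 18.7, 7.66 and 17.6 CPM, where Slc18a3 was also highest. Foxp3 T cells had 7.40, 4.51, 4.86 and 7.06 CPM, and the ranges of the first and second type did not overlap (1.48 apart, SE 0.38, adjusted p = 0.00298, edgeR). Other CD4 T cells had 1.40 to 6.80 CPM and Cxcr5 T cells 1.85 to 6.80. In the libraries of Ighd-positive B cells Chdh stood at 0.154 to 0.251 CPM, and it was above them by 5.84 (log2, SE 0.50) in innate lymphoid cells and by 4.36 (SE 0.43) in Foxp3 T cells. It was also called higher in Cxcr5, other CD4 and γδ T cells, but not in Eomes T cells, where 1 library had any. Neither Chdh nor Slc18a3 was called different from Ighd-positive B cells in any B, plasma or myeloid type.

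The esterases were near the limit of detection. Ache, which cleaves acetylcholine, had 32 UMIs, of which 9 came from lymphatic endothelial cells (1, 3, 0 and 5 UMIs, or 2.23, 12.02, 0 and 23.6 CPM). Plasma cells had 1, 0, 4 and 2 Ache UMIs, and no Ache UMI was counted in γδ, Eomes or Cxcr5 T cells, innate lymphoid cells, germinal centre B cells or macrophages. Bche, the broader butyrylcholinesterase, had 8 UMIs in 4 cells, with 1 and 2 UMIs in a pair of stromal libraries and 1 in macrophages. No esterase could be tested at this depth.

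Adora2a, which raises cAMP when adenosine binds, was by far highest in mature dendritic cells, with 173.2, 145.8, 175.1 and 154.5 CPM. Eomes T cells followed with 48.7, 38.4, 31.0 and 60.3 and Foxp3 T cells with 27.0, 28.3, 32.5 and 34.0 CPM. The first of these steps was 2.05 (SE 0.20, adjusted p = 1.6e-12) and the second 0.57 (SE 0.21, adjusted p = 0.0474), by edgeR. Germinal centre B cells, although among the highest for Chat, had 3.02, 1.28, 0.431 and 0.241 CPM of Adora2a, a log2 difference of -3.101 (SE 0.34) from Ighd-positive B cells. Macrophages were also below them (-2.47, SE 0.32), and Foxp3 (1.63), Cxcr5 (1.40) and other CD4 T cells (1.03) above them, all called on both scalings. At 3000 UMIs a cell, 38.0% of mature dendritic cells had an Adora2a UMI.

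Over the members, 91 differences from Ighd-positive B cells were tested (7 genes in 13 types), of which 32 were higher and 26 lower, against 25.2% and 22.0% of all genes and types. Without TMM, 16 were lower. Among those no longer called were Slc44a1 and Slc44a2 in Foxp3 and other CD4 T cells.

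The comparison of temperatures asked whether a short cold challenge alters these genes within a cell type. Chat rose at 4 °C in Ighd-positive B cells, γδ T cells and macrophages, and in none of the 12 types tested was it called lower by edgeR with the settings used here. The 2 libraries against 2 were compared by edgeR on summed UMIs. Its p-values weigh a difference only against the spread between libraries, which edgeR estimates in part from the other genes of the type. In Ighd-positive B cells, Chat was at 38.4 and 43.0 CPM at 30 °C and 66.7 and 61.3 at 4 °C, from 564, 560, 796 and 959 UMIs. The groups did not overlap, and the log2 fold change was 0.55 (SE 0.078, adjusted p = 8.1e-05, edgeR), where 6.87% of all genes tested in that type were called higher. This call held under all alternatives and without any single library (0.46 to 0.64). At 3000 UMIs a cell, a Chat UMI was in 11.3% and 9.99% of these cells at 30 °C and 16.3% and 16.04% at 4 °C, for which the exact two-sided permutation test gave p = 0.33, the smallest that 2 against 2 allows.

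In γδ T cells, Chat was at 33.4 and 27.4 CPM at 30 °C and 53.7 and 74.9 at 4 °C, from 94, 83, 64 and 40 UMIs in 226, 233, 119 and 54 cells. All values at 4 °C were above those at 30 °C (0.92, SE 0.22, adjusted p = 0.0169, edgeR; 3.09% of genes called higher). The call was lost without replicate 2 at 30 °C (0.80, adjusted p = 0.0725), with cells of 5000 genes or more kept (0.80, adjusted p = 0.123), with DESeq2 (0.97, adjusted p = 0.107) and with cells that hold an Mki67 or Top2a UMI removed (0.41, adjusted p = 0.528). B cell panel genes in these cells were at 89.6, 97.2, 144 and 97.3 CPM, 1.76% to 2.71% of their level in Ighd-positive B cells, and their part in the result was not tested.

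In macrophages, Chat was at 10.3 and 2.92 CPM at 30 °C and 20.7 and 21.1 at 4 °C, from 18, 5, 80 and 31 UMIs. The groups did not overlap, and the log2 fold change was 1.58 (SE 0.39, adjusted p = 0.0166, edgeR; 8.75% of genes called higher). Replicate 2 at 30 °C decides its size, which was 0.97 without it and 2.74 without replicate 1 at 30 °C, and the call was lost with DESeq2 (1.60, adjusted p = 0.0828) and with Mki67 or Top2a cells removed (1.19, adjusted p = 0.123). T cell panel genes were at 32.1, 20.4, 16.02 and 24.5 CPM in macrophages, 0.416% to 0.949% of their level in Foxp3 T cells, while Chat was at 2.43% to 19.0% of its level there. B cell panel genes were at 0.825% to 1.16% of their level in Ighd-positive B cells, while Chat was at 6.77% to 34.4% of its level in those. Cells that also passed the T or B panel were left out, so the gate caps these panel levels and not Chat. Whether Chat was carried over from other cells was not tested. Among macrophages with an Itgax or Trem2 UMI, a Chat UMI was in 1 of 32 and 0 of 36 cells at 30 °C and in 7 of 92 and 4 of 53 at 4 °C, at 3000 UMIs a cell. In resident macrophages, which carry Mrc1 or Folr2 and no Itgax or Trem2, it was in 4 of 121 and 2 of 125 cells at 30 °C and in 9 of 304 and 4 of 88 at 4 °C. These shares, with means of 2.45% ± 1.21 (SD, n = 2) and 3.75% ± 1.12, overlapped between the temperatures (exact two-sided permutation test, p = 0.667).

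Innate lymphoid cells were the exception in direction. Chat was at 82.0 and 115.6 CPM at 30 °C and 49.8 and 65.2 at 4 °C, from 47, 99, 52 and 37 UMIs, and at equal depth in 28.2% and 31.3% of cells against 14.02% and 20.6%. The groups did not overlap but the log2 fold change of -0.93 (SE 0.24, adjusted p = 0.052, edgeR) did not pass the threshold (1.58% of genes were called lower). It passed with no filter on low counts, with immunoglobulin genes left out, and without replicate 1 at 30 °C (-1.13), and with a wider gate it was -0.42 (adjusted p = 0.0966). In plasma cells the difference was 0.52 (adjusted p = 0.359) and in Cxcr5 T cells 0.27 (adjusted p = 0.738), and in the other 6 types tested it was 0.04 to 0.14, none called by edgeR. In stromal and lymphatic endothelial cells Chat was too sparse to test.

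**Figure D4:**
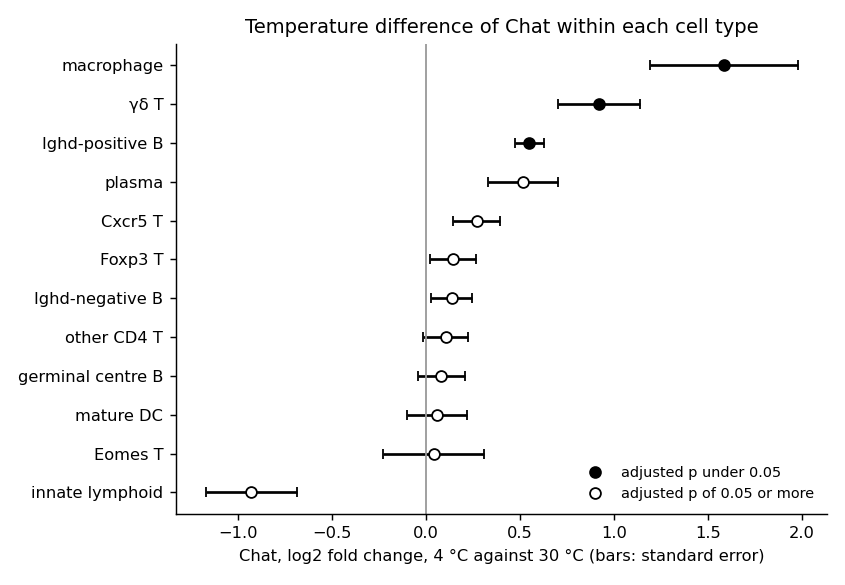
Log2 fold change of Chat, 4 °C against 30 °C (horizontal axis), in the 12 cell types tested, with standard errors as bars and filled points where the adjusted p of edgeR was under 0.05. Macrophages, γδ T cells and Ighd-positive B cells are filled at 1.58, 0.92 and 0.55, and innate lymphoid cells lie at -0.93 with an open point.

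The temperature effects themselves were compared between cell types by the interaction in 1 edgeR fit. For Chat, 8 of 91 pairs were called, where 0.66% of all genes and pairs together were, and 0 to 5.3% of genes in a single pair. The effect in innate lymphoid cells was below those in macrophages (-2.53, SE 0.45, adjusted p = 3.4e-04), Ighd-positive B cells (-1.45, adjusted p = 0.00423) and plasma cells (-1.41, adjusted p = 0.0205), and that in γδ T cells was 1.79 above it (adjusted p = 0.00409). The effect in macrophages was also above those in Foxp3 T cells, other CD4 T cells, Ighd-negative B cells and germinal centre B cells, by 1.49 to 1.56. These interaction calls rest on few libraries, as no pair was called without replicate 2 at 30 °C or without replicate 1 at 4 °C.

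Over the other members, 49 further pairs of gene and cell type could be tested, of which 2 were called, against 2.21% of all genes and types called higher and 2.68% called lower. The larger was a fall of Chka in macrophages. From 72.8 and 81.6 CPM at 30 °C it went to 31.5 and 27.2 at 4 °C, with no overlap (-1.42, SE 0.16, adjusted p = 9.4e-05, edgeR; 8.28% of genes called lower), and the call held under all alternatives, at -1.31 to -1.56 with single libraries left out. In resident macrophages alone, Chka was at 84.1, 84.7, 28.4 and 19.7 CPM. In mature dendritic cells the values were higher at 4 °C (0.65), a difference that was not called (adjusted p = 0.12) except with no filter on low counts (0.70, adjusted p = 0.0152), and the 2 effects differed by -2.14 (SE 0.26, adjusted p = 3.1e-07, edgeR). The effect in macrophages was below those in 8 of the other types, Foxp3, other CD4 and γδ T cells and all B and plasma types among them.

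Slc44a2 rose in Ighd-positive B cells, from 44.8 and 42.7 to 55.2 and 60.1 CPM (0.30, SE 0.072, adjusted p = 0.00866, edgeR). The groups did not overlap, but the call was lost without replicate 2 at 30 °C (0.27) or replicate 2 at 4 °C (0.24) and with DESeq2. In lymphatic endothelial cells Slc44a2 was at 154.2 and 160.3 CPM at 30 °C and 77.7 and 75.6 at 4 °C, which in 11 to 40 cells a library did not pass the test (-1.07, adjusted p = 0.31, edgeR). The 2 effects differed by 1.51 (SE 0.34, adjusted p = 0.0258, edgeR), a call that was lost whichever library was left out.

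Slc44a1 in mature dendritic cells was at 38.1 and 56.3 CPM at 30 °C and 84.5 and 90.6 at 4 °C, without overlap, and its fold change of 0.89 did not pass the threshold (adjusted p = 0.141, edgeR), but did without replicate 2 at 30 °C (1.21) and with no filter on low counts (0.93, adjusted p = 0.00472). Slc18a3 in γδ T cells, from 1, 8, 7 and 4 UMIs, differed by 1.92 (adjusted p = 0.144, edgeR). Adora2a was called in none of the 9 types in which it was tested, with differences of -0.12 to 0.43, and Chdh in none of 3.

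**Figure D5:**
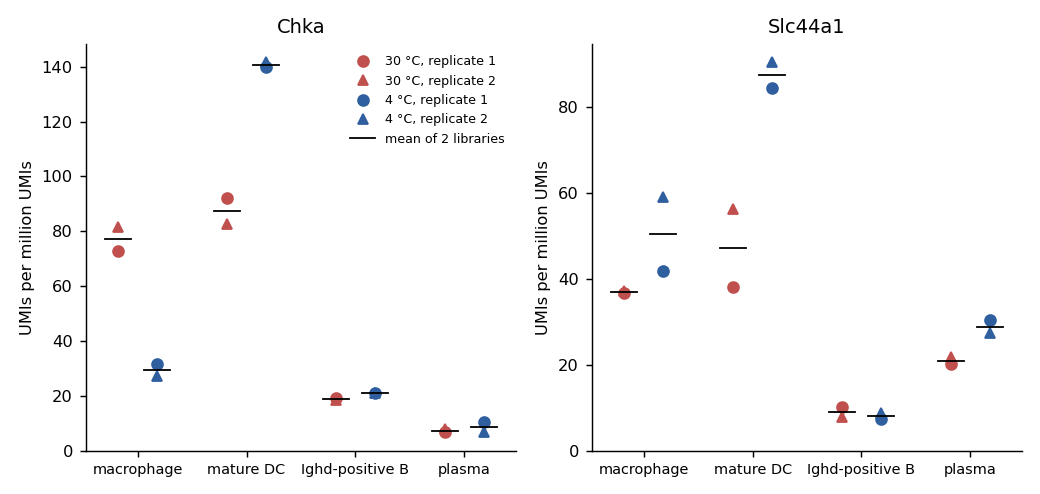
Chka (left) and Slc44a1 (right) in macrophages, mature dendritic cells, Ighd-positive B cells and plasma cells, in CPM (vertical axes from 0), with a point for each library (red 30 °C, blue 4 °C) and a bar for the mean of 2 libraries. Chka in macrophages is at 72.8 and 81.6 at 30 °C and at 31.5 and 27.2 at 4 °C, and in mature dendritic cells both genes lie higher in the blue points.

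Other genes of the pathway were counted in lists, to be read against the 2.21% of all genes and types that were called higher at 4 °C and the 2.68% called lower. Of 21 acetylcholine receptor genes, only 9 pairs of gene and cell type had enough UMIs to test, and none was called. None of 99 pairs for acetyl-CoA supply, which feeds the synthesis of acetylcholine, and none of 11 for choline oxidation was called either. For 18 other genes of choline transport and phosphatidylcholine, 4 of 120 pairs were higher and 3 lower at 4 °C, near those shares. In macrophages 3 of 13 were higher and 2 lower, where 8.75% and 8.28% of all genes were. There, Lpcat1, which reacylates lysophosphatidylcholine, rose by 1.37 (22.4, 25.1, 62.8 and 65.3 CPM), Pcyt1a, the enzyme after Chka in the same pathway, by 0.71, and Pld1, a phospholipase that frees choline, by 1.25. Cept1, which makes the final lipid, fell by 0.83 (105.5, 123.1, 64.3 and 71.4 CPM). Pcyt1a fell by 0.62 in Foxp3 T cells, and Lpcat1 rose by 0.47 in Ighd-positive B cells.

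For 7 partners of receptors and esterases, 3 of 26 pairs were higher and 2 lower, against 2.21% and 2.68% of all genes and types. Lynx1, which binds nicotinic receptors, rose by 0.76 in Ighd-positive B cells (13.1, 10.7, 21.8 and 21.6 CPM), and Rapsn, which clusters them at the muscle endplate, fell by 0.56 in Foxp3 T cells (41.7, 45.9, 31.3 and 30.5 CPM). Ly6e rose in macrophages (0.52) and Ighd-positive B cells (0.14) and fell in γδ T cells (-0.34). For 9 genes of adenosine handling, the other adenosine receptors among them, 0 of 57 pairs were higher and 5 lower, against the same 2.21% and 2.68%. Nt5e, which makes adenosine from AMP, fell by 1.48 in innate lymphoid cells (94.2, 101.5, 42.1 and 29.9 CPM, adjusted p = 0.00201, edgeR) and by 0.80 in Ighd-positive B cells. Entpd1, which acts before Nt5e, fell by 0.65 in macrophages, the transporter Slc29a1 by 0.47 there, and Adk, which uses up adenosine, by 0.33 in Ighd-positive B cells.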

How the data were processed

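The authors sequenced 10x 3′ libraries and deposited raw UMI counts per gene and cell, aligned to mm10 (GRCm38) with Cell Ranger, whose version is 3.0.0 in the file headers and 3.1.0 in the submitters' processing notes. Cells with over 200 and under 5000 genes and under 7.5% mitochondrial UMIs were kept, as in the study. The members and the gene lists were chosen with earlier results of these data known. Cells were gated by marker UMIs; cells positive for more than 1 lineage panel were left out. UMIs were summed per library and type (sums of 10 or more cells) and tested with edgeR 4.0.16 in R 4.3.3 (TMM, filterByExpr, quasi-likelihood, Benjamini-Hochberg over all genes, threshold 0.05), which gave all adjusted p values unless DESeq2 1.42.0 is named. Temperature tests were checked on simulated data of 4 types. A log2 change of 1 was recovered in 78.6% of cases in Ighd-positive B cells and 76.7% in macrophages. In Foxp3 T cells it was 61.6% and in lymphatic endothelial cells 36.0%. For a log2 change of 2 it was 98.9% to 100%. False calls made up 1.54% to 7.10% of calls. These rates were not split by UMI count, and whether they hold for members with few UMIs was not tested. Shares used cells thinned to 3000 UMIs, exact permutation tests and Clopper-Pearson 95% intervals (scipy 1.17.1). Floors are 3 counts. Doublets were scored with Scrublet (scanpy 1.11.5). All 10 members are named; list genes are named where called, at most 4 per list and type. Alternatives were DESeq2, other scalings, filters and gates, doublets, proliferating cells or immunoglobulin genes removed, a replicate block and each library left out. The wider innate lymphoid gate was chosen after seeing the data. To look for pairing, each library's deviation from the mean of its temperature group was taken for every gene. Between same-numbered libraries these deviations correlated at -0.23 to 0.13 over types.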

Additional observations from a re-analysis of the deposited data

Results flagged for a closer look

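Results are given here where a test of the difference found a temperature effect (4 °C against 30 °C, log2) that was not alike in a pair of cell types. All come from the edgeR interaction fit, and each adjusted p is over all genes of its pair.

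For Chka, the effect in macrophages minus that in mature dendritic cells was -2.14 (SE 0.26, adjusted p = 3.1e-07, edgeR). The effect in other types minus that in macrophages was 1.46 in Ighd-positive B cells, 1.46 in Foxp3 T cells, 1.66 in other CD4 T cells, 1.84 in γδ T cells and 1.64 in plasma cells. It was 1.25 in germinal centre B cells and 1.09 in Ighd-negative B cells. The differences from mature dendritic cells, Ighd-positive B cells, Foxp3 T cells and other CD4 T cells were called whichever library was left out. The other 4 were lost without at least 1 library.

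For Chat, the effect in innate lymphoid cells minus that in macrophages was -2.53, minus that in Ighd-positive B cells -1.45 and minus that in plasma cells -1.41, and the effect in γδ T cells minus that in innate lymphoid cells was 1.79. Relative to macrophages it was -1.56 in germinal centre B cells, -1.49 in Foxp3 T cells, -1.52 in other CD4 T cells and -1.50 in Ighd-negative B cells. None of these 8 was called without replicate 2 at 30 °C or without replicate 1 at 4 °C.

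For Slc44a1, the effect in Ighd-positive B cells minus that in mature dendritic cells was -1.26 (adjusted p = 0.00982, edgeR). For Slc44a2, the effect in Ighd-positive B cells minus that in lymphatic endothelial cells was 1.51 (adjusted p = 0.0258, edgeR). For Adora2a, the effect in germinal centre B cells minus that in macrophages was -4.56 (SE 1.35, adjusted p = 0.0468, edgeR), from few UMIs in both types. Each of these 3 was lost without TMM, the Slc44a2 and Adora2a differences whichever library was left out, and that of Slc44a1 without replicate 1 at 30 °C or either replicate at 4 °C.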

How the results depend on the processing

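Chat in Ighd-positive B cells and Chka in macrophages kept their calls at 4 °C against 30 °C under all alternatives run. The number of types with Chat higher, 3, was 1 with DESeq2 and 1 with Mki67 or Top2a cells removed, and 2 to 4 with single libraries left out. Member and type pairs called higher, 4, were 1 with DESeq2, 2 with those cells removed, 6 with no filter on low counts, where Slc44a1 and Chka in mature dendritic cells were added, and 3 to 5 with libraries left out. Types with Chat lower, 0, became 1 with no filter on low counts and with immunoglobulin genes left out, and 0 to 1 with libraries left out. Member and type pairs called lower, 1, became 2 under these and with the wider innate lymphoid gate, and 1 to 2 with libraries left out. Chat in γδ T cells was 0.97 with DESeq2, 0.80 with no upper limit on genes, 0.41 with Mki67 or Top2a cells removed and 0.73 to 1.22 with libraries left out. In macrophages it was 1.60 with DESeq2 and 1.19 with Mki67 or Top2a cells removed, and Slc44a2 in Ighd-positive B cells was 0.30 with DESeq2 and 0.24 to 0.35 with libraries left out. Members lower than Ighd-positive B cells, 26, were 16 without TMM, and Chat in plasma cells reversed to -0.012. Pairs of types with unlike Chat effects, 8, were 16 with no filter and 0 to 13 with libraries left out. For the other members these were 11 and 5 to 6. Apart from the alternatives' own construction, the cause was not tested.

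With the replicate number as a block, Chat was 0.55 in Ighd-positive B cells, 0.93 in γδ T cells, 1.56 in macrophages and -0.86 in innate lymphoid cells, and 3 types were called higher and 0 lower. The numbers are names that nothing ties to a shared litter or day, so the block tests no known pairing. Without TMM, the median fold change of all genes moved by at most 0.10. With 2 libraries a group, single genes with few UMIs stay imprecise.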

Other observations

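The genes whose levels over the 56 sums of cell type and library were most like those of Chat, among 10061 genes with a mean of at least 5 CPM, were Borcs8 (Pearson r = 0.93 on log2(CPM + 1)), Psmb8 (0.91), Taf10 (0.90), Srgn (0.88) and Hint3 (0.88). For Slc44a1 they were led by Atf5 (0.90), for Slc44a2 by Pear1 (0.77), for Chka by Dnajc5 (0.79) and for Adora2a by Sri (0.86) and Nr4a3 (0.85). Sums of the same library share its depth and sort, so these values are a description.

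Within a type, cells with a UMI of another member did not all carry Chat more often. At 3000 UMIs a cell, Chat was in 35.3% of the 303 Foxp3 T cells with an Adora2a UMI and in 28.6% of those without, and in 36.4% against 21.8% of other CD4 T cells. In mature dendritic cells, where Adora2a was highest, it was in 22.9% of the 109 cells with an Adora2a UMI and in 28.7% of the others. Counts of this size are sparse, and no test was made of them.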
